A study of Mus musculus with 4 samples.

Results

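Transcripts of the G protein, adenylyl cyclase and protein kinase A (PKA) pathway were examined in skeletal muscle of mice without corticotropin-releasing factor receptor 2 (Crhr2-/-, here KO) and of Crhr2+/+ mice (WT). Members were the probe sets with 1 gene symbol, picked by how that symbol begins. The names were those of G protein alpha, beta and gamma subunits, regulators of G protein signalling (RGS) and alpha- and beta-adrenergic receptors. Those of adenylyl cyclases, PKA subunits, A-kinase anchoring proteins (AKAP), phosphodiesterases and the Creb or Crem name group were also used. Such names take in some other genes, among them the antisense transcript Gnasas1, the scaffold Pde4dip and the prenyl-binding protein Pde6d. The rule used names and no measured value, and it found 116 of 12422 tested probe sets, for 79 of 8251 named genes. All mice were males of 6.5 months on a C57BL/6x129 background, fed chow and untreated, and the tissue was gastrocnemius with soleus. Each genotype was represented by RNA of 4 mice, mixed as 2 pools of 2, and every pool was run on 1 Affymetrix U74Av2 array, so each genotype has 2 arrays and p-values measure the spread between pools. The part of Crhr2 removed in the KO and the cells the muscle samples held besides fibres were not stated in the labels.

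Crhr2 is a receptor for urocortin peptides that couples mainly to the stimulatory G protein. The alpha subunit of that protein, encoded by Gnas, activates adenylyl cyclases, which make cyclic AMP, while inhibitory alpha subunits and phosphodiesterases lower it. Cyclic AMP releases the catalytic subunits of PKA from their regulatory subunits, AKAPs hold the kinase at particular places in the cell, and CREB proteins phosphorylated by PKA switch on genes that carry a cyclic AMP response element (CRE). In muscle this route is best known downstream of beta-adrenergic receptors, where it promotes glycogen breakdown and muscle growth.

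The CRE is the sequence through which the pathway acts on genes, and members of the pathway can carry it themselves, so 3 member promoters with a match are shown. RefSeq promoter windows (GRCm38.p6), each 300 bases from 250 before to 50 after an annotated transcript start, were at hand for 60 of the 79 genes, as 101 windows. The palindromic CRE TGACGTCA was found in 2 windows (1.98%), both of Prkar1a, against 1.79% of 32851 windows of all genes. Its core, TGACG on either strand (CGTCA on the other), which the full CRE also contains, was found in 24 windows (23.8%), against 20.8% of all windows. Counting a gene with any of its windows, 20 genes (33.3%) had the core, against 23.0% of all 27025 genes. Member genes had more windows each on average, which favours them in the count by gene. Capitals mark the full CRE in Prkar1a, 49 bases before the start, and the core in Pde4b, 34 bases before it, and in Rgs4, 236 and 141 bases before it. The full CRE was in 2 of 6 Prkar1a windows and the core in 1 of 4 Pde4b windows, while Rgs4 had 1 window. The windows are chr11:109650699-109650998 on the plus strand for Prkar1a, chr4:102421305-102421604 on the plus strand for Pde4b and chr1:169747593-169747892 on the minus strand for Rgs4, each written 5′ to 3′ along its gene. Prkar1a was chosen for its full CRE, and Pde4b and Rgs4 after their values below were seen.
Prkar1a: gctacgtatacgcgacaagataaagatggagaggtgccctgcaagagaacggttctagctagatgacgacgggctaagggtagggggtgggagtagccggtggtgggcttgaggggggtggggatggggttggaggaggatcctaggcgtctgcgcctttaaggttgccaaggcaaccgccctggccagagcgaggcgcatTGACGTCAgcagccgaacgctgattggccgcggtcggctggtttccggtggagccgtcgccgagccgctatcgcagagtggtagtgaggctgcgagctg
Pde4b: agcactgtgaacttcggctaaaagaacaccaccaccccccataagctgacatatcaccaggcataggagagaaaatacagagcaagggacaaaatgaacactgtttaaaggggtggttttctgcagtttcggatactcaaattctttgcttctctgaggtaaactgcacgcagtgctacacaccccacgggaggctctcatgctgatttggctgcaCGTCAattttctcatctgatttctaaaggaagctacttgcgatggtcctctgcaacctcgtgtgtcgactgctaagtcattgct
Rgs4: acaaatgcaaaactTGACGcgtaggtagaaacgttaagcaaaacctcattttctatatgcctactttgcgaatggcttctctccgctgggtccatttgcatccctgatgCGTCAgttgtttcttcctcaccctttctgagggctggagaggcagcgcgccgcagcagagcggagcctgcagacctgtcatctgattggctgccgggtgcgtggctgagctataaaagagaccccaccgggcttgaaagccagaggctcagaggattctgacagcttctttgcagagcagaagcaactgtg
A match describes the letters of a window, and these data hold no measure of CREB binding there.

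The arrays had been scaled to the same trimmed mean before deposit, 200.2 on each, and the median intensity lay between 67.6 and 71.2. Crhr2 itself read 154 and 192 in the WT pools and 100.4 and 75.1 in the KO pools on its brighter probe set, and 18.8 and 45.3 against 36.7 and 22.7 on the other. All 11 skeletal muscle markers were measured, and their summed intensity lay between 87444 and 93153. The brightest genes weigh most in this sum, and single markers could vary more. Myh7, picked after its values were seen, read 1968 and 3666 in the WT pools and 3452 and 2872 in the KO pools. Of the marker lists for other tissues, the exocrine pancreas list (4 of 9 genes measured, all 4 higher in KO) summed to 920 and 934 in the WT pools and to 7218 and 2286 in the KO pools. The liver list (7 of 8 measured, all 7 lower in KO) summed to 618 and 1717 in the WT pools and to 262 and 352 in the KO pools, so KO replicate 1 and WT replicate 2 stand apart by these genes. Blood markers (3 of 4 measured, 2 higher and 1 lower in KO) summed to 7658 and 6374 in the WT pools and to 9785 and 8620 in the KO pools. Ratios of 3′ to 5′ control signals were 0.624 and 0.686 in the WT pools and 0.729 and 0.866 in the KO pools for actin. For Gapdh they were 0.889 and 0.914 in the WT pools and 1.04 and 0.988 in the KO pools. The part of these differences in the values below was not tested, and in tissue RNA fewer cells of a type cannot be told from less RNA per cell.

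No member differed between genotypes after adjustment over all probe sets (limma): 0 of the 116 passed the threshold of 0.05, the smallest adjusted p was 0.813, and 0% of all 12422 probe sets passed. At an unadjusted p under 0.05 there were 4 members (3.45%), where all probe sets gave 5.43%. The probe sets of Gnb4 and Pde4b were higher in KO, against 2.57% of all probe sets in that direction, and those of Gna11 and Rgs4 were lower, against 2.86%. Counts at this p with 1 array left out are not given, as they were not set against all probe sets. Both KO arrays lay above both WT arrays for 23 members (19.8%) and below them for 18 (15.5%), against 17% and 17.6% of all probe sets. A difference of at least 1.5-fold without overlap and at a level above the median probe set was met by 1 member (0.862%), the dimmer Gna11 probe set, against 1.89% of all probe sets. That count was 4 when KO replicate 1 was left out and 2 when any of the other arrays was. With 1 array left in a genotype, an absence of overlap is easier to meet, and the shares of all probe sets were not computed. With 2 arrays against 2, an exact two-sided permutation test of a single value cannot go below p = 0.333.

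Of the 116 probe sets, 70 (60.3%) read higher on average in KO, against 50% of all probe sets, and their median log2 fold change was 0.06 against 0.00. With 1 probe set per gene, the brightest, 51 of 79 genes read higher, with a median of 0.08. The median of the 116 was 0.07 when KO replicate 1 was left out and 0.01 to 0.02 when another array was, and the median of the 79 genes was 0.05 when the probe sets of a gene were averaged. In 92 of 116 members (79.3%) the WT pools or the KO pools differed more from each other than the genotype means did. The share of all probe sets was 78.0%. The median difference between the WT pools was 0.25 and between the KO pools 0.26 on the log2 scale, against 0.20 between genotypes. For all probe sets these medians were 0.24, 0.26 and 0.19. A pool difference compares single arrays and a genotype difference compares means of 2 arrays. Without any genotype effect the first would be the wider on average.

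**Figure D1:**
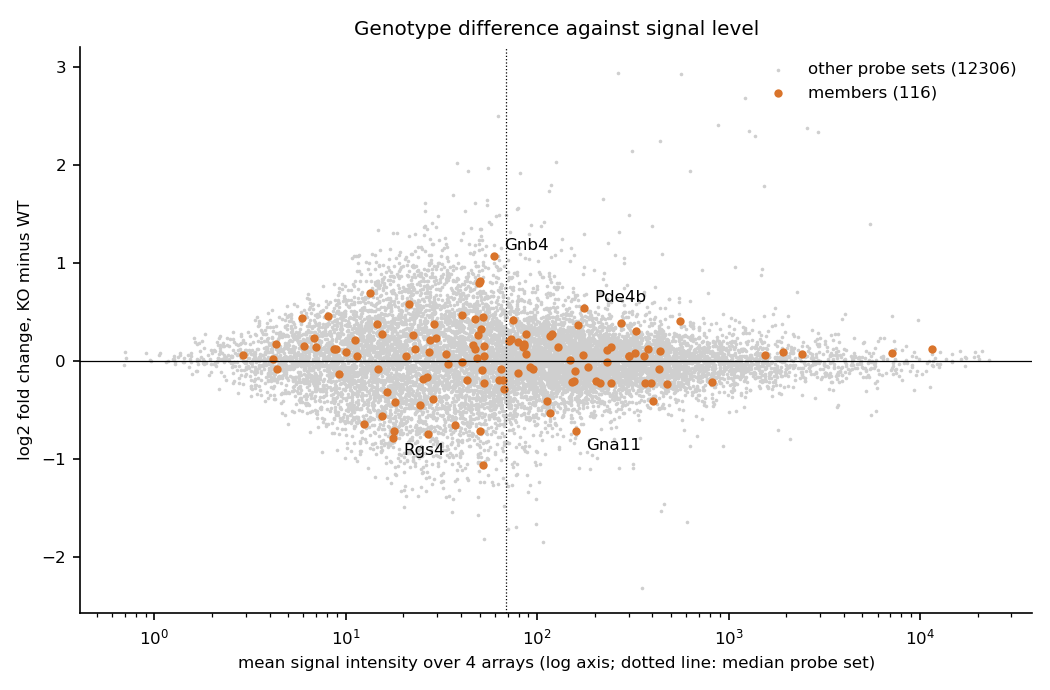
Log2 fold change (KO minus WT) of each probe set against its mean intensity over the 4 arrays, with the 116 members in orange, the other tested probe sets in grey and the median probe set as a dotted line. The members lie within the grey cloud, between -1.07 and 1.07, and the 4 labelled ones had an unadjusted p under 0.05.

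The alpha subunits decide which effector a receptor reaches. None of the 15 genes with such a name passed, among them the antisense Gnasas1, which is not a subunit. Gnas, the stimulatory subunit, read 10969 and 11214 in the WT pools and 11662 and 12512 in the KO pools on the probe set that carries its main signal. Both KO arrays were above both WT arrays, by a log2 fold change of 0.12 ± 0.12 (SE, 95% interval -0.16 to 0.41, limma adjusted p = 0.908). The other Gnas probe sets were dim and read lower in KO on average, with log2 fold changes of -0.22 ± 0.41 and -0.71 ± 0.34 (SE). The Gnas locus makes several transcripts, and which of them each probe set reads was not stated in the labels. Its antisense transcript, Gnasas1, was dim, at 11.7 and 13.7 in the WT pools and 19.9 and 16.4 in the KO pools (0.27 ± 0.27).

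Gnai2, which inhibits adenylyl cyclase, read 2458 and 2237 in the WT pools and 2393 and 2542 in the KO pools, and the genotypes overlapped. Its log2 fold change was 0.07 ± 0.10 (95% interval -0.18 to 0.32), and its other probe sets gave 0.06 ± 0.12 and -0.22 ± 0.27. Gna11, a subunit of the Gq class that acts on phospholipase C instead of adenylyl cyclase, gave different answers on its probe sets. The dimmer one read 237 and 166 in the WT pools and 105 and 126 in the KO pools, without overlap (-0.72 ± 0.24, 95% interval -1.30 to -0.13, unadjusted p = 0.0236, limma adjusted p = 0.846). The brighter one read 224 and 243 in the WT pools and 214 and 249 in the KO pools, with full overlap (-0.02 ± 0.16). The remaining alpha subunit genes, 12 with Gna11 on its brighter probe set, lay between -0.20 and 0.38, with 9 higher and 3 lower in KO. Besides Gna11 they were the inhibitory Gnai1 and Gnai3, the related Gnao1 and Gnaz, Gnaq, Gna14 and Gna15 of the Gq class, Gna12 and Gna13, and the photoreceptor transducins Gnat1 and Gnat2.

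Beta and gamma subunits form the dimer that anchors the alpha subunit and signals on its own, and here Gnb1 and Gnb4 read higher in KO while Gnb2 and Gnb5 read lower. Gnb4 read 36.1 and 30.6 in the WT pools and 90.7 and 79.8 in the KO pools. The KO pools averaged 256% of the WT pools, and on the log2(intensity + 14) scale, which shrinks differences of the dimmest probe sets, this was the widest upward difference among members (1.07 ± 0.32, 95% interval 0.28 to 1.85, unadjusted p = 0.0156), and it did not pass adjustment (limma adjusted p = 0.813). The mean over all arrays, 59.3, was below the median probe set at 68.7. All 3 probe sets of Gnb1, the widely expressed beta subunit, read higher in KO. The brightest read 359 and 235 in the WT pools and 383 and 339.8 in the KO pools, where WT replicate 2 was low and the genotypes overlapped (0.30 ± 0.22). The next read 146 and 137 in the WT pools and 188 and 184 in the KO pools (0.36 ± 0.18), and the dimmest read 30.3 and 34.6 in the WT pools and 65.6 and 67.6 in the KO pools (0.80 ± 0.33, limma adjusted p = 0.908). On both of these the KO pools lay close together and above the WT pools. Without WT replicate 1 the difference on the brightest was 0.59, and without WT replicate 2 it was 0.01.

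Gnb2 read 516 and 519.8 in the WT pools and 409.7 and 468 in the KO pools, with no overlap (-0.24 ± 0.13, 95% interval -0.54 to 0.07, limma adjusted p = 0.908). The other 8 genes of this class ranged from -0.42 to 0.21, with 3 higher and 5 lower in KO and 2 of the 8 without overlap, both lower, against 34.6% of all probe sets without overlap. They were Gnb3, Gnb5, which pairs with a subfamily of RGS proteins, and the gamma subunits Gng2, Gng3, Gng4, Gng10, Gng11 and Gng12.

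RGS proteins shorten the signal by speeding GTP hydrolysis on alpha subunits. Of 13 genes, 9 read higher and 4 lower in KO, and 5 higher ones (38.5%) and 1 lower one (7.69%) did not overlap, against 17% and 17.6% of all probe sets. The lower one was Rgs4, which acts on alpha subunits of the inhibitory and Gq classes and read 27.1 and 25.2 in the WT pools and 8.18 and 10.2 in the KO pools. The KO pools averaged 35.2% of the WT pools (-0.79 ± 0.28, 95% interval -1.47 to -0.12, unadjusted p = 0.0285, limma adjusted p = 0.846), on a probe set well below the median level. Rgs9 was also dim, at 4.11 and 9.13 in the WT pools and 11.8 and 28.3 in the KO pools (0.69 ± 0.33), with KO replicate 2 far above the rest and a difference of 0.33 without it. Rgs2, which cyclic AMP is known to induce, read 26.1 and 37.7 in the WT pools and 50.5 and 47.6 in the KO pools, without overlap (0.47 ± 0.35, 95% interval -0.38 to 1.32), with 0.29 when WT replicate 1 was left out.

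Rgs5 is an RGS protein of pericytes and vascular smooth muscle. It read 148 and 180.2 in the WT pools and 165 and 138 in the KO pools (-0.11 ± 0.21), and its other probe set read 129 and 146 in the WT pools and 133 and 60.3 in the KO pools (-0.53 ± 0.36). Only KO replicate 2 was low there, and the genotypes overlapped on both probe sets. The smooth muscle and pericyte list (7 of 8 measured, 6 lower and 1 higher in KO) summed to 2188 and 2006.5 in the WT pools. In the KO pools it summed to 1805 and 1898. Its brightest gene, Des, is also expressed in muscle fibres. Des read 593 and 622 in the WT pools and 574 and 490 in the KO pools. The part of these genes in the Rgs values was not tested. The other 9 RGS genes were Rgs3, Rgs6, Rgs7, Rgs8, Rgs10, Rgs11, Rgs14, Rgs16 and Rgs19, and they ranged from -0.66 to 0.58 with 7 higher and 2 lower in KO.

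**Figure D2:**
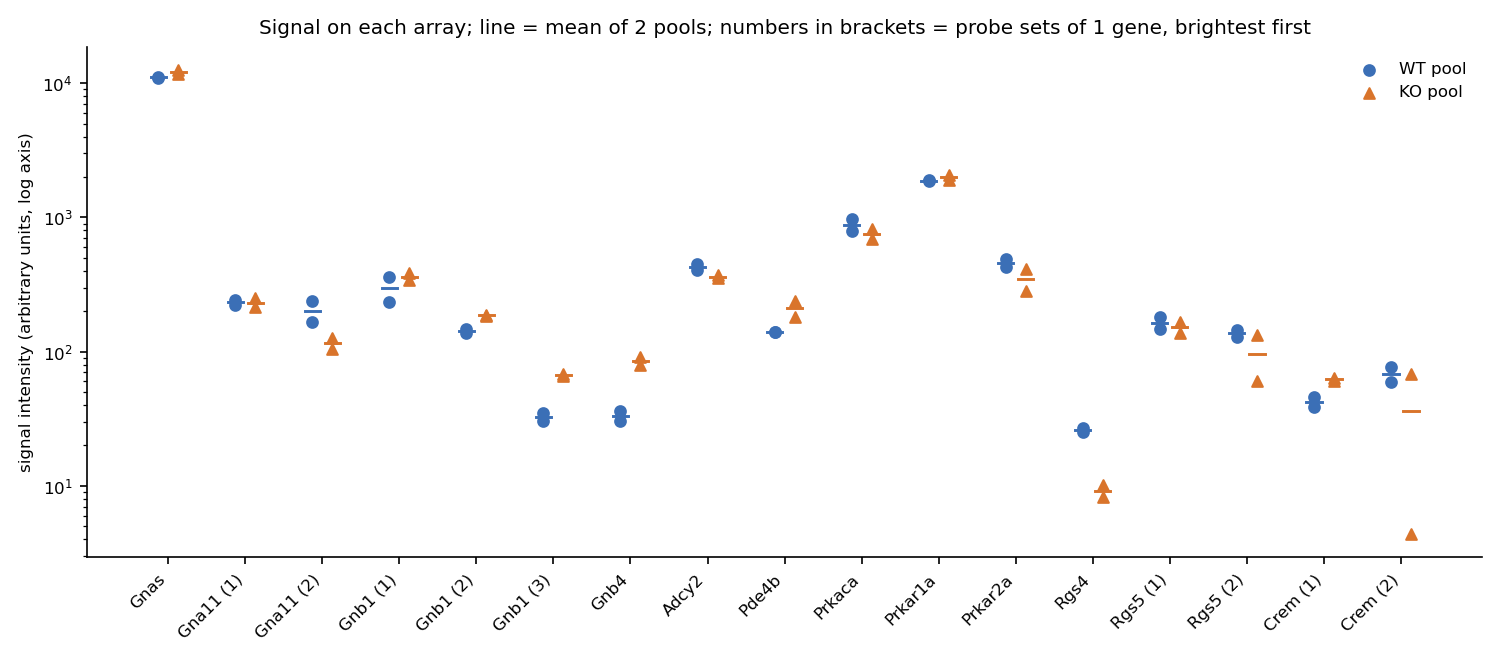
Signal intensity on each array (arbitrary units, log axis) for 12 genes, with WT pools as blue circles, KO pools as orange triangles and a line at each mean of 2 pools. Levels of different probe sets are not comparable with each other. The KO pools lie above the WT pools for Gnas, Gnb4, Pde4b, Prkar1a, the dimmer Gnb1 probe sets and the brighter Crem probe set. They lie below them for Adcy2, Rgs4, Prkar2a and the dimmer Gna11 probe set.

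At the receptor and cyclase step no gene passed. Among adrenergic receptors, which feed this pathway in muscle, the alpha receptors Adra1b and Adra2c were measured, and both were dim. Adra1b read 14.9 and 37.8 in the WT pools and 45.7 and 20.5 in the KO pools (0.23 ± 0.46), and Adra2c read 15.1 and 16.3 in the WT pools and 13.3 and 14.6 in the KO pools, lower without overlap by a small margin (-0.08 ± 0.26). Beta receptors were not analysed here. Of 7 adenylyl cyclase genes, 3 read higher and 4 lower in KO, with a median of -0.09 and a range from -0.23 to 0.12.

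Adcy2, a cyclase that beta and gamma dimers can stimulate, read 402 and 453 in the WT pools and 372 and 351 in the KO pools. Both KO arrays were below both WT arrays (-0.23 ± 0.13, 95% interval -0.55 to 0.09, limma adjusted p = 0.908). Adcy6, which calcium inhibits, showed the same order, at 160.2 and 168 in the WT pools and 126 and 154 in the KO pools (-0.22 ± 0.20). Adcy9, a widely expressed cyclase, read 400.0 and 494 in the WT pools and 458 and 382 in the KO pools (-0.09 ± 0.16), and its other probe set gave 0.05 ± 0.16. Adcy7, known from blood cells, read 92.5 and 77.6 in the WT pools and 96.8 and 82.5 in the KO pools (0.07 ± 0.27). The genotypes overlapped for Adcy9 and Adcy7, and also for the remaining Adcy3, Adcy4 and Adcy8, which ranged from -0.20 to 0.12.

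Phosphodiesterases end the signal by hydrolysing cyclic nucleotides. Of the 12 genes with this name, 1 (8.33%), Pde4b, had an unadjusted p under 0.05 (limma), against 5.43% of all probe sets. Pde4b is specific for cyclic AMP and read 139 and 139.8 in the WT pools and 182 and 238 in the KO pools. The WT pools were nearly equal and both KO pools were higher, so that the KO pools averaged 151% of the WT pools (0.54 ± 0.20, 95% interval 0.04 to 1.03). Its unadjusted p was 0.037 and its adjusted p 0.862 (limma). Leaving out KO replicate 1 gave 0.72, and leaving out KO replicate 2 gave 0.36. Lymphocyte markers, from cells in which Pde4b is also known (5 of 7 measured, 4 higher and 1 lower in KO), summed to 693 and 285 in the WT pools and to 554 and 765 in the KO pools, and their part was not tested.

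Pde7a, another enzyme specific for cyclic AMP, read 194 and 143 in the WT pools and 143 and 211 in the KO pools, with overlap (0.06 ± 0.26). Pde1c, a calmodulin-dependent enzyme, lies near Crhr2 on chromosome 6, with 8 protein-coding genes between them in the GRCm38.p6 gene order. It was dim on all arrays, at 2.94 and 2.29 in the WT pools and 3.75 and 14.6 in the KO pools (0.44 ± 0.27, and 0.10 without KO replicate 2). The other 9 genes with this name ranged from -0.32 to 0.32, with 6 higher and 3 lower in KO. They were the calmodulin-dependent Pde1a and Pde1b, Pde8a, which is specific for cyclic AMP, Pde9a, which is specific for cyclic GMP, the photoreceptor subunits Pde6a, Pde6b and Pde6g, the prenyl-binding protein Pde6d and the scaffold myomegalin, Pde4dip. The dimmer probe set of Pde6b had the widest difference of the class on the log2 scale, at 11.2 and 26.2 in the WT pools and 6.39 and 6.31 in the KO pools (-0.64 ± 0.30), and it is named after its values were seen.

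Of the 5 PKA subunit genes, 4 lay above the median level, and Prkar2a had the widest difference on the brightest probe sets. Prkar2a, the regulatory subunit that AKAPs bind most readily, read 426 and 491 in the WT pools and 281 and 409.8 in the KO pools. The KO pools averaged 75.4% of the WT pools, without overlap (-0.41 ± 0.20, 95% interval -0.90 to 0.07, limma adjusted p = 0.908). Leaving out KO replicate 2 gave -0.67, and leaving out KO replicate 1 gave -0.15, so its size rested on KO replicate 1. Prkaca, the main catalytic subunit, read 792 and 972 in the WT pools and 686 and 824 in the KO pools, with overlap (-0.22 ± 0.15). Prkacb, the other catalytic subunit, read 380.3 and 460.3 in the WT pools and 418 and 484 in the KO pools (0.10 ± 0.15).

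Prkar1a, the regulatory subunit with the full CRE shown above in some of its promoter windows, had the smallest difference of the PKA genes. It read 1864 and 1888 in the WT pools and 2068 and 1915 in the KO pools, higher in KO without overlap, at a log2 fold change of 0.08 ± 0.10 (95% interval -0.15 to 0.32). The dim Prkar1b had 0.12 ± 0.35 and, on its other probe set, 0.43 ± 0.39.

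AKAPs tether PKA through its regulatory subunits, and the 9 genes were 5 higher and 4 lower in KO. Akap1, which holds PKA at the outer mitochondrial membrane, disagreed between its probe sets. The brightest read 373 and 591 in the WT pools and 611 and 643 in the KO pools (0.40 ± 0.21), with WT replicate 1 low. The other Akap1 probe sets read 381 and 407 in WT against 304 and 368 in KO (-0.23 ± 0.15), and 192 and 244 in WT against 190.5 and 181 in KO (-0.21 ± 0.19). All 3 separated the genotypes, but not in the same direction. The difference on the brightest was 0.73 without WT replicate 2 and 0.08 without WT replicate 1. Akap7, which links PKA to calcium channels in heart and muscle, was dim, at 17.7 and 23.5 in the WT pools and 16.8 and 3.65 in the KO pools (-0.56 ± 0.35), with KO replicate 2 low and a difference of -0.16 without it. The other 7, Akap2, Akap4, Akap8, Akap8l, Akap9, Akap12 and Akap17b, ranged from -0.23 to 0.28.

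At the end of the pathway, Creb1, the cyclic AMP-responsive activator, was dim on all 3 probe sets. The brightest read 30.6 and 37.0 in the WT pools and 33.5 and 13.7 in the KO pools (-0.40 ± 0.40, and -0.0057 without KO replicate 2), and the others gave -0.75 ± 0.52 and 0.21 ± 0.25. Crem, whose gene also makes a cyclic AMP-induced repressor, read 46.2 and 38.4 in the WT pools and 63.8 and 60.8 in the KO pools, without overlap (0.44 ± 0.33). Its other probe set read 59.3 and 76.4 in the WT pools and 68.4 and 4.36 in the KO pools (-1.07 ± 0.70), where KO replicate 2 alone made the difference. Crebbp, the coactivator that CREB recruits, Creb3l1, a membrane-bound factor, and Crebrf gave 0.05 to 0.11, all with overlap.

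**Figure D3:**
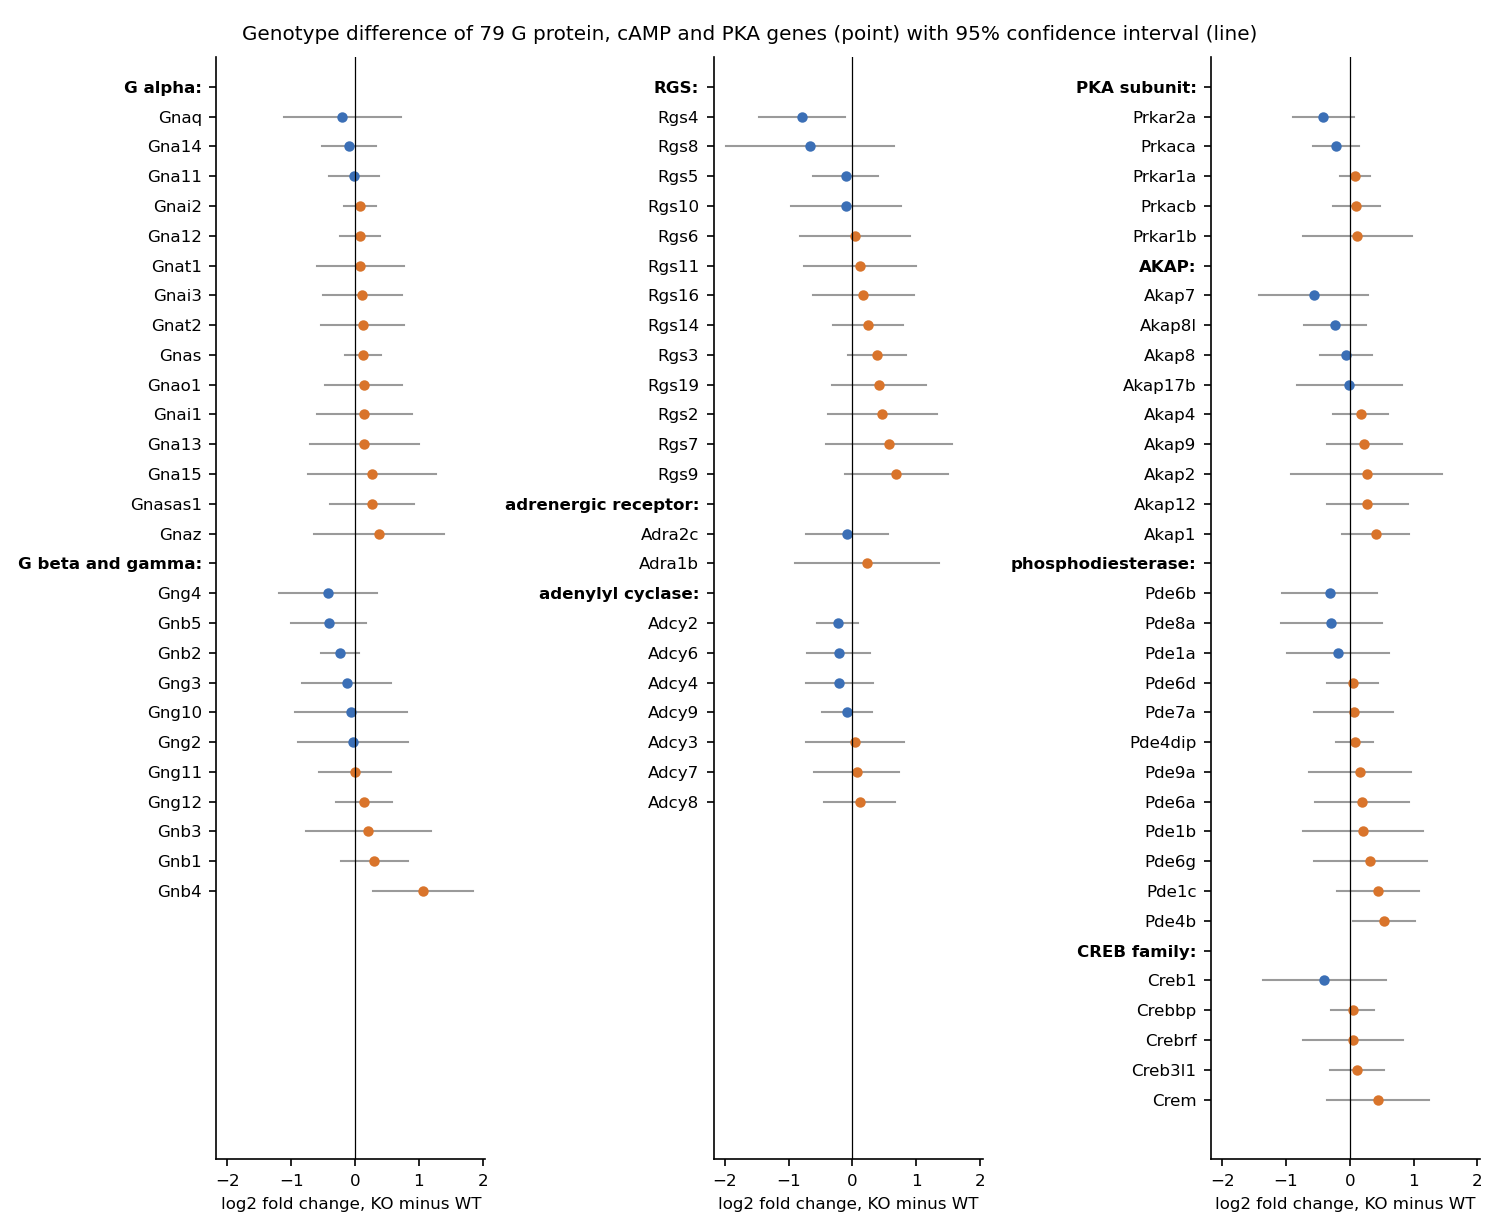
Log2 fold change (KO minus WT) of the 79 genes on their brightest probe set, grouped by role, with the 95% confidence interval of the fit as a grey line; orange points are higher and blue points lower in KO. The interval leaves out 0 for Gnb4, Rgs4 and Pde4b, none of which passed adjustment over all probe sets.

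Several genes were read by more than 1 probe set, which gives a check within the arrays. These probe sets read the same RNA pools, so their agreement is not a replicate. Whether their sequences overlap was not examined. Of 24 such genes, the probe sets agreed in sign for 11 and differed for 13. Agreement was closest in Gnai1, at 0.14 and 0.15, and covered 3 probe sets each in Gnb1 and Rgs19, all higher, and in Rgs10, all lower. The widest gap was in Crem, between -1.07 and 0.44, followed by Creb1, between -0.75 and 0.21, and Akap8, whose 5 probe sets ran from -0.06 on the brightest to 0.81 on a dim one. Dim probe sets differed more: the median size of the difference was 0.22 for the 64 members below the median level and 0.16 for the 52 above it, against 0.27 and 0.15 for all probe sets.

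**Figure D4:**
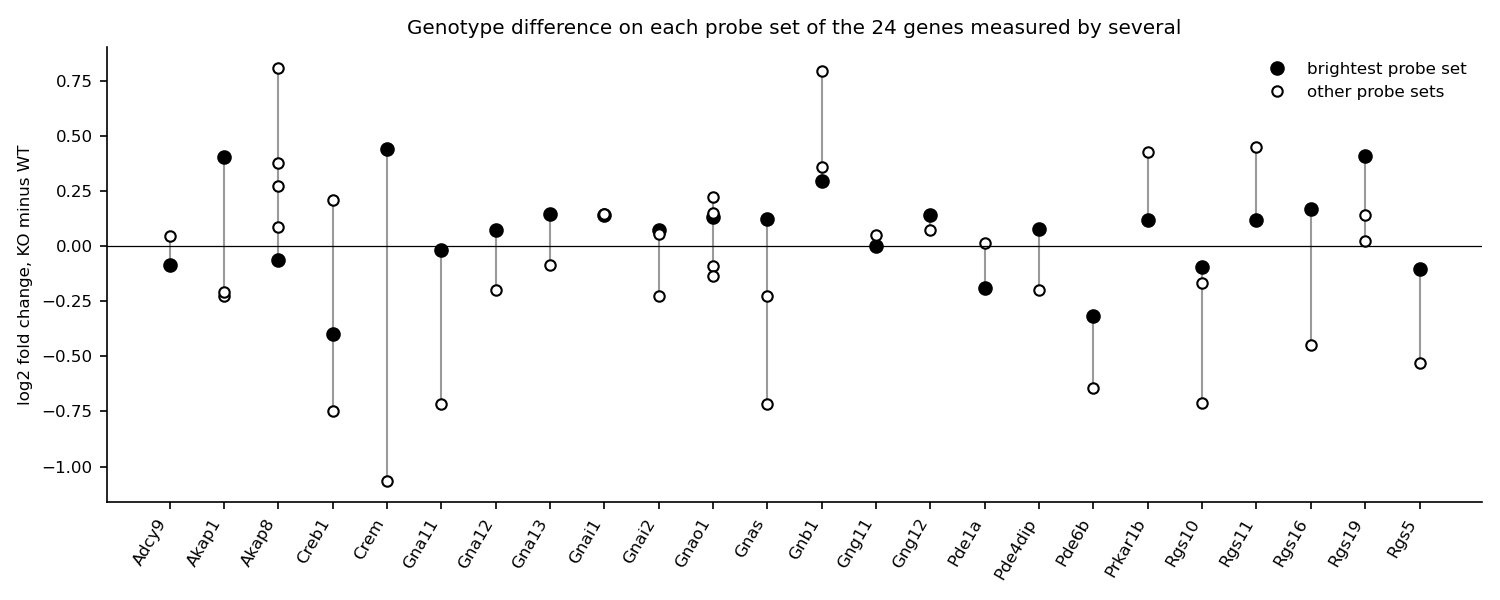
Log2 fold change (KO minus WT) on every probe set of the 24 member genes with several; filled points are the brightest probe set of a gene, open points the others, and the line spans their range. Crem, Creb1, Akap8 and Gnas span 0, while all 3 Gnb1 probe sets lie above it.

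Other genes of the pathway were taken from 4 lists, and none of their genes passed (0 by limma over all probe sets). Of 21 receptors that couple to the same or related G proteins, 7 read higher and 14 lower in KO, 2 at an unadjusted p under 0.05 (5.43% of all probe sets), with a median of -0.10. These were Crhr2, the gene targeted in these mice (-0.88 ± 0.25) and Adcyap1r1, the receptor of the peptide PACAP, which lies near Crhr2 with 4 protein-coding genes between them. Adcyap1r1 was dim, at 34.8 and 32.8 in the WT pools and 6.58 and 3.65 in the KO pools (-1.33 ± 0.28, limma adjusted p = 0.803), and its other dim probe set differed the other way, by 0.40. Of 5 receptor kinases, arrestins and related G protein regulators, 4 read higher and 1 lower, with 0 at an unadjusted p under 0.05. The lower one was Ric8a, a chaperone of alpha subunits (-0.34 ± 0.22), and the receptor kinase Grk5 gave 0.54 ± 0.40. Without WT replicate 1 Ric8a gave -0.15, and without KO replicate 2 Grk5 gave 0.22.

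Of 12 cyclic AMP effectors and PKA inhibitors, 8 read higher and 4 lower, with a median of 0.18 and 0 at an unadjusted p under 0.05. Ppp1r1a, a phosphatase inhibitor that PKA activates, read 61.9 and 102.1 in the WT pools and 133 and 124 in the KO pools (0.60 ± 0.30), and the small GTPase Rap1a gave 0.33 ± 0.20 on its brighter probe set and -0.12 on the other. For Ppp1r1a, leaving out WT replicate 1 gave 0.29 and leaving out WT replicate 2 gave 0.91. Of 16 CREB partners and genes known to respond to cyclic AMP, 7 read higher and 9 lower, with a median of -0.05. In this list 3 genes had an unadjusted p under 0.05, where 5.43% of all probe sets did, and not in the same direction: Junb at -1.23 ± 0.27, Nr4a2 at 1.23 ± 0.35 on a dim probe set, and Pck1 at 0.71 ± 0.20, the last chosen after its values were seen. Junb read 135 and 164 in the WT pools and 49.7 and 61.3 in the KO pools, and Nr4a2 read 9.82 and 15.3 in the WT pools and 40.7 and 56.1 in the KO pools. Their other probe sets gave 0.25 for Junb and 0.21 for Nr4a2.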

How the data were processed

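In the deposited table each probe set has 1 linear intensity on every array (arbitrary units), already scaled between arrays by the authors, as its equal trimmed means (2% cut at each end) show; the summary algorithm, background correction, detection calls and build were not stated in the labels. Groups came from the sample titles, because the genotype and tissue fields of the labels are exchanged. Of 12488 probe sets, 66 Affymetrix controls were left out and 12422 fitted. All fits used log2(intensity + 14), where 14 is 20% of the median of the table; this understates differences of dim probe sets. The genotype difference (KO minus WT) came from limma 3.58.1 under R 4.3.3, through lmFit and eBayes with the variance trended on intensity. P-values are two-sided, were adjusted by Benjamini-Hochberg across the 12422 probe sets and were read at a threshold of 0.05, and the script was tested on simulated data. The number of arrays limits the precision.

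Symbols came from the platform annotation, which gave 1 symbol to 10833 probe sets, several to 396 and none to 1193; 10817 had a gene identifier in GRCm38.p6. A gene is described on its brightest probe set. Named with array values were 21 core components fixed by name (18 measured), the 2 genes with the smallest p in each of 9 roles, and any member at 1.5-fold without overlap above the median level; of each pathway list, the 2 with the smallest p. The members, lists and rules were chosen with earlier results of these data known. Alternatives were the pseudocount, quantile normalization, a level filter, no intensity trend, a replicate block, each array left out, suffixed probe sets left out, probe sets averaged by gene and updated symbols.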

Additional observations from a re-analysis of the deposited data

How the results depend on the processing

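No member, no gene of the pathway lists and no probe set of the table passed under any alternative run, and the lowest adjusted p of a member was 0.682. The replicate numbers do not pair the pools (the correlation of deviations of same-numbered arrays was 0.00345); a fit with the replicate block gave 0 members past the threshold and 6 at an unadjusted p under 0.05. That count, 4 as reported, was 2 among probe sets above the median level, where 32 of 52 members read higher in KO, and 3 to 7 with 1 array left out. The size rule, met by 1 member, was met by 0 with 4 times the pseudocount and by 2 to 4 with 1 array left out. Gna11 met it except without WT replicate 1 and with 4 times the pseudocount. Gnb1, Akap1, Pde4b, Pde1b, Prkar2a or the dimmer Rgs5 probe set met it with 1 array left out, when an absence of overlap is easier to meet. The Rgs5 range given below is from its brighter probe set. The median of the members, 0.06, was 0.013 to 0.074 with 1 array left out, when 60 to 66 read higher, and the median by gene, 0.08, was 0.045 with probe sets averaged. Of 37 named log2 fold changes, 31 kept their direction throughout and 6 turned with 1 array left out: Adcy7 (-0.043 to 0.17), Adcy9 (-0.23 to 0.062), Adra1b (-0.19 to 0.65), Pde7a (-0.20 to 0.32), Prkacb (-0.032 to 0.23) and Rgs5 (-0.23 to 0.024). The cause of these turns was not tested. A probe set without overlap between genotypes cannot turn when 1 array is left out, and many were named for a small p. The 31 therefore largely restate the overlap. With 1 array left out, the lone array of its genotype is assumed to vary like the other genotype. Without detection calls in the labels or the table, dim probe sets may lie at background.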
